A study of Mus musculus with 8 samples.

Results

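The vitamin D receptor and metabolism genes are 8 genes, chosen by symbol: the receptor Vdr and its partner Rxra, the enzymes Cyp2r1, Cyp27a1, Cyp27b1 and Cyp24a1, and the calcium transport genes Trpv6 and S100g. All 13 probe sets that carried exactly 1 of these symbols were taken, out of 45037 probe sets tested, so that 8 of 18193 genes are described. A probe set is a group of short array probes read as 1 value. Vdr, Cyp24a1 and Cyp27a1 had 2 probe sets each, Rxra had 3, and the other 4 genes had 1 each. Male mice gave RNA of the tibia and femur at an age of 12 days, and 2 bone samples of the same genotype went into each RNA. The Hyp mice, on a C57BL/6 background, lack the 3′ part of Phex and were compared with WT mice, for which the labels name only the wild-type strain, with 4 arrays per genotype. Growth conditions were given alike for both, with a standard diet of 0.6% calcium, 0.54% phosphate and 2200 IU vitamin D. Whole long bone holds marrow, cartilage and adhering muscle besides bone cells, so more cells of a type and more RNA per cell cannot be told apart.

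Vitamin D is inactive until it is hydroxylated. Cyp2r1 and Cyp27a1 can form calcidiol, mainly in liver, Cyp27b1 converts calcidiol into the hormone calcitriol, mainly in kidney, and Cyp24a1 breaks both down. Calcitriol binds the nuclear receptor Vdr, which pairs with a retinoid X receptor such as Rxra on DNA, and Cyp24a1, Trpv6 and S100g are classical genes that this pair induces. FGF23, the phosphate-lowering hormone made by bone cells, represses Cyp27b1 and induces Cyp24a1 in the kidney, and local Cyp27b1 and Cyp24a1 activity is also known in bone cells and macrophages.

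The hexamer AGGTCA and its variants are the half-sites to which such receptors bind, and 2 of them repeated with 3 bases between form the classical element of the Vdr and Rxra pair. The 250 bases before the start of a gene are shown for the member that rose in Hyp bone, for the receptor and for a classical target, with half-sites in capitals on either strand. The letters come from RefSeq, build GRCm38.p6, 5′ to 3′ along the gene. They are Cyp27a1 (chr1:74713285-74713534, plus strand), Vdr (chr15:97908297-97908546, minus strand) and S100g (chrX:162964600-162964849, minus strand).
Cyp27a1: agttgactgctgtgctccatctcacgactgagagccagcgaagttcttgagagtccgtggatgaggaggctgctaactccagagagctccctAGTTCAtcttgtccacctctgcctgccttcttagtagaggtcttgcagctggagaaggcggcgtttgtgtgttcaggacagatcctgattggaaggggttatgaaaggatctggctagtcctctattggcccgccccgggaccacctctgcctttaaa
Vdr: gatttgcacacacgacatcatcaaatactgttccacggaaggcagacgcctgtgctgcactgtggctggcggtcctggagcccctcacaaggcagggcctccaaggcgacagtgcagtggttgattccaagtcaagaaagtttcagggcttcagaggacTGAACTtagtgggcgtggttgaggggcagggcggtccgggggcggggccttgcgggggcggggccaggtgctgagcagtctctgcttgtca
S100g: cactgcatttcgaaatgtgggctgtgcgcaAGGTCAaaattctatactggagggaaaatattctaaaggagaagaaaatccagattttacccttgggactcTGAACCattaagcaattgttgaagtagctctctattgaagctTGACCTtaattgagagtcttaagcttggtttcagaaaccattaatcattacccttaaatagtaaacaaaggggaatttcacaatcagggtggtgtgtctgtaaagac
Besides AGGTCA (in 14% of all promoters), the variants searched were GGTTCA (found in 8.85% of all promoters), then AGTTCA (11.8%) and also GGGTCA (11.6%), each on both strands, where 2 on the same strand can share 1 end base. No promoter was listed for Cyp24a1, so it is in none of these counts. At least 1 half-site stood in 6 of the 8 promoters listed for the other 7 genes, against 38.6% of 32851 promoters of the same length. Cyp27a1 held 1 AGTTCA, which began 158 bases before the start, and Vdr held 1 on the other strand 91 bases before it. S100g held 3 half-sites, with AGGTCA on both strands and GGTTCA on the other strand. A direct repeat of 2 half-sites with 3 bases between occurred in 0 of the 8 promoters and in 0.0396% of all, and these windows leave out more distant sequence.

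For every probe set the median over the 8 arrays was 0. The values therefore show differences between arrays on the log2 scale, and neither a level nor a signal above background can be read for any gene, markers of the tissue included. WT replicate 3 and Hyp replicate 2 stood apart in skeletal muscle markers, with list means of 2.08 and -1.08, while the other 6 arrays lay between -0.59 and 0.28. Phex, the gene deleted in Hyp, fell by 6.67 ± 0.15 (SE, limma adjusted p = 3.75e-09) on the gene mean, and the genotypes did not overlap. The labels do not say from how many animals the RNAs came, so the spread behind the p-values is that of RNA samples and may be technical.

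The comparison of Hyp with WT bone asks which of these genes differ where Phex is deleted. Cyp27a1, the mitochondrial sterol hydroxylase, rose at 1 of its 2 probe sets, by 0.48 ± 0.09 (SE) on the log2 scale or 1.40-fold. The other 12 probe sets did not pass, with differences between -0.09 and 0.14 and limma adjusted p from 0.443 to 0.93. Thus 1 of 13 probe sets was called, beside 7.13% of all probe sets (limma, adjusted p under 0.05), and the genotypes did not overlap in 1 of 13, beside 15.5% of all. On gene means 1 of 8 genes was called, beside 12.9% of all genes. Of the 13 differences 8 were above 0 and 5 below, and their median was 0.02, as was the median of all probe sets.

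**Figure D1:**
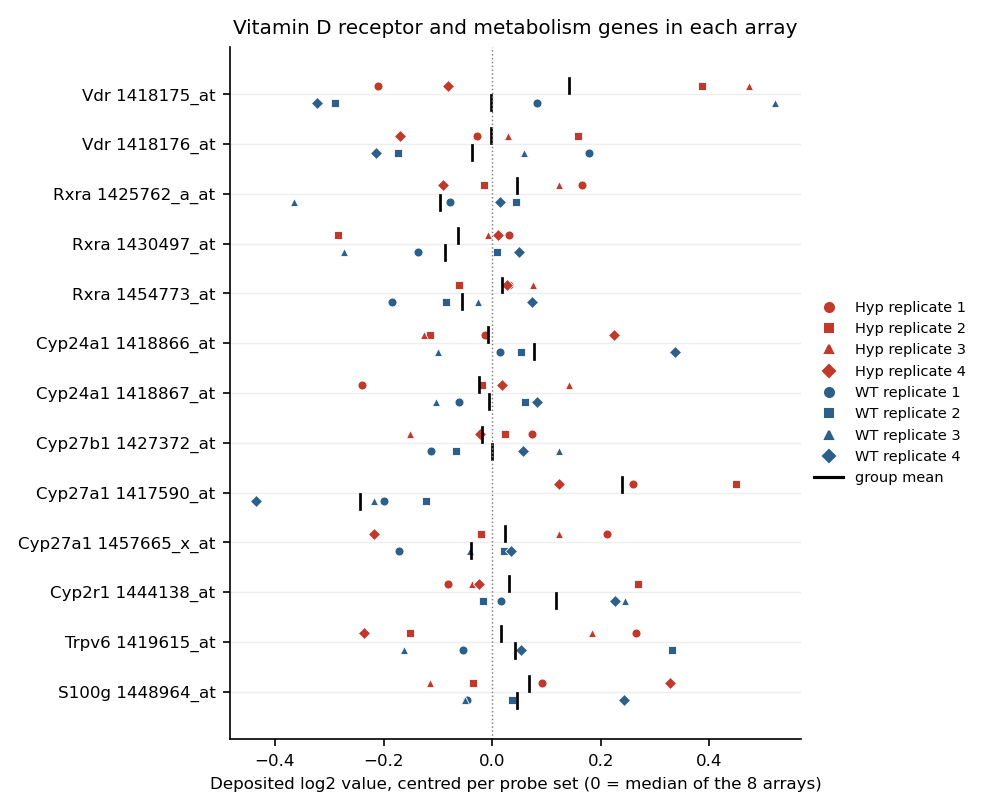
Deposited log2 values of the 13 probe sets in each array (x axis, centred on the median of the 8 arrays), with 1 point per array, the shape giving the replicate and a black bar at each group mean. In Cyp27a1 1417590_at the Hyp points run from 0.12 to 0.45 and the WT points from -0.43 to -0.12, and in the other 12 rows the colours overlap.

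Vdr, the nuclear receptor for calcitriol, varied widely between arrays of 1 genotype. At 1418175_at the Hyp arrays read -0.21, 0.39, 0.47 and -0.08 and the WT arrays 0.08, -0.29, 0.52 and -0.32, in replicate order. Both genotypes held high and low arrays, and the highest value was that of WT replicate 3. The difference was 0.14 ± 0.20 (SE), with a 95% interval from -0.31 to 0.60 (limma adjusted p = 0.729). With 1 array left out it lay between 0.03 (without Hyp replicate 3) and 0.32 (without WT replicate 3), moving by over 1.5 times also without Hyp replicate 1, 2 or 4 or WT replicate 2 or 4, with limma adjusted p from 0.29 to 0.955. Its spread within groups, an SD of 0.37, exceeded that of 98.9% of all probe sets, whose median was 0.117. At 1418176_at the Hyp arrays read -0.03, 0.16, 0.03 and -0.17 and the WT arrays 0.18, -0.17, 0.06 and -0.21. The same 4 arrays, Hyp replicates 2 and 3 and WT replicates 1 and 3, lay above 0 at both probe sets. The difference there was 0.04 ± 0.10 (95% interval -0.19 to 0.26, limma adjusted p = 0.878). The intervals include a Vdr array signal in Hyp bone as low as 0.81-fold and as high as 1.51-fold that of WT.

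Rxra, the partner with which Vdr binds DNA, lay slightly above WT at each of its 3 probe sets, and none passed. At 1425762_a_at the Hyp arrays read 0.16, -0.01, 0.12 and -0.09 and the WT arrays -0.08, 0.04, -0.36 and 0.01, so WT replicate 3 was the lowest array. The difference was 0.14 ± 0.10 (SE, 95% interval -0.08 to 0.36, limma adjusted p = 0.443), and without WT replicate 3 it was 0.05 ± 0.08 (limma adjusted p = 0.735). At 1430497_at the difference was 0.02 ± 0.09, and Hyp replicate 2 and WT replicate 3 read -0.28 and -0.27 while the other 6 arrays lay between -0.14 and 0.05. At 1454773_at it was 0.07 ± 0.07 (limma adjusted p = 0.581), the narrowest of the 3, with an interval from -0.08 to 0.23. The gene mean differed by 0.08 ± 0.07, which allows 0.95-fold to 1.18-fold in array signal (95% interval).

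Among the enzymes that form calcidiol, Cyp27a1 was the one that rose. At 1417590_at its Hyp arrays read 0.26, 0.45, 0.12 and 0.12 and its WT arrays -0.20, -0.12, -0.22 and -0.43. Every Hyp array was above every WT array, with group means of 0.24 ± 0.15 (SD, n = 4) and -0.24 ± 0.13. The 95% interval of the difference ran from 0.28 to 0.69, or 1.21-fold to 1.61-fold (limma adjusted p = 0.0116), and with any 1 array left out the difference stayed between 0.41 and 0.52 with adjusted p from 0.0169 to 0.0363. The other probe set, 1457665_x_at, carries the suffix that Affymetrix gives to sets with probes shared by other sequences. There the Hyp arrays read 0.21, -0.02, 0.12 and -0.22 and the WT arrays -0.17, 0.02, -0.04 and 0.03, with a difference of 0.06 ± 0.09 (limma adjusted p = 0.744).

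The disagreement of the 2 Cyp27a1 probe sets was itself measured as the first minus the second in each array. It was 0.21 ± 0.23 (SD, n = 4) in Hyp and -0.20 ± 0.19 in WT, and every Hyp array exceeded every WT array. The two-sided exact permutation test gave p = 0.0286, the smallest that 4 against 4 arrays can give, and 0.0571 after Benjamini-Hochberg adjustment over 2 such tests. Only the called gene was tested in this way, and its called probe set alone already separated the genotypes. The test is therefore not independent of that call. On the mean of both probe sets Cyp27a1 rose by 0.27 ± 0.07 (SE, limma adjusted p = 0.0264). That call was lost without Hyp replicate 1, 2 or 3 or WT replicate 1 or 4, where the difference lay between 0.24 and 0.28 with adjusted p from 0.0583 to 0.0802. The 3 genes whose means followed Cyp27a1 most closely over the 8 arrays were Tex50, Edar and Foxf1. Edar is a receptor of the ectodysplasin pathway and Foxf1 a transcription factor. Pearson r was 0.97 for each, picked from all genes and given as a description of arrays that also differ in genotype. The 2 Cyp27a1 probe sets correlated with each other at 0.21. Tex50 was called, and Edar and Foxf1 were not (limma adjusted p = 0.0218, 0.152 and 0.131).

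Cyp27a1 is also expressed by macrophages, and 10 of 13 monocyte and macrophage markers rose, with a median difference of 0.40 beside 0.02 for all genes (called higher: 6.54% of all genes). Their mean ran from 0.16 to 0.35 over the Hyp arrays and from -0.30 to -0.20 over the WT arrays. In replicate order the macrophage means were 0.26, 0.31, 0.16 and 0.35 in Hyp, beside Cyp27a1 values at 1417590_at of 0.26, 0.45, 0.12 and 0.12. In WT they were -0.29, -0.30, -0.22 and -0.20, beside -0.20, -0.12, -0.22 and -0.43. Both measures separated the genotypes. In Hyp the array with the highest macrophage mean, replicate 4, had the lowest Cyp27a1 value, just below replicate 3 (0.123 and 0.124). The other Hyp arrays ranked alike in both. In WT the order of the arrays was reversed between the measures. The part of these cells in the Cyp27a1 difference was not tested.

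**Figure D2:**
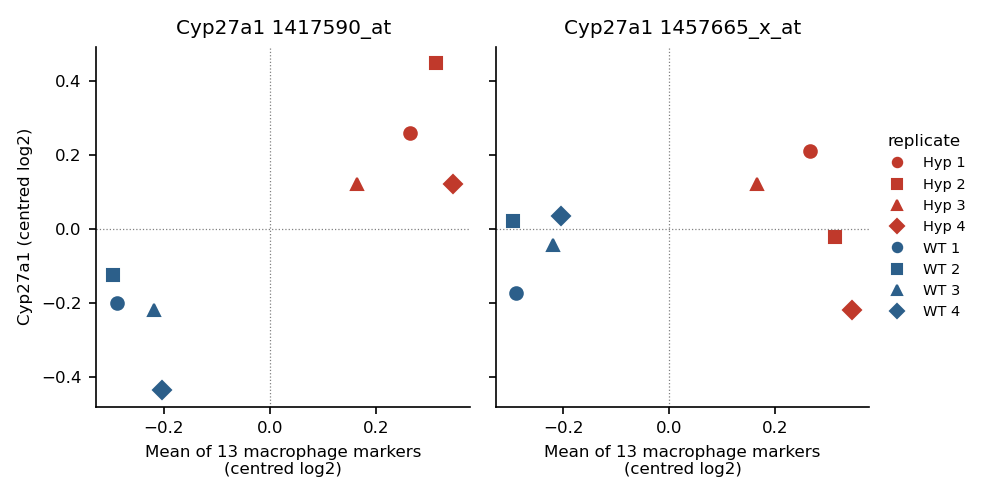
Cyp27a1 values of its 2 probe sets (y axes, centred log2) against the mean of 13 monocyte and macrophage markers (x axes, centred log2), 1 point per array. On the x axis the Hyp arrays (0.16 to 0.35) and WT arrays (-0.30 to -0.20) form separate groups, which also separate on the y axis at 1417590_at and mix at 1457665_x_at.

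Cyp2r1, the main calcidiol-forming enzyme of liver, was not called. Its Hyp arrays read -0.08, 0.27, -0.04 and -0.02 and its WT arrays 0.02, -0.02, 0.24 and 0.23. Hyp replicate 2 lay well above the other Hyp arrays and just above the highest WT array. The difference was -0.09 ± 0.09 (SE, 95% interval -0.30 to 0.12, limma adjusted p = 0.644), and without Hyp replicate 2 it was -0.17 ± 0.08 (limma adjusted p = 0.318).

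Cyp27b1, the enzyme that makes calcitriol, had the smallest spread of the single-probe-set genes, with a within-group SD of 0.10. Its Hyp arrays read 0.07, 0.02, -0.15 and -0.02 and its WT arrays -0.11, -0.07, 0.12 and 0.06, so both genotypes lay on either side of 0. The difference was -0.02 ± 0.08 (SE, limma adjusted p = 0.908). The 95% interval, -0.19 to 0.15, allows 0.88-fold to 1.11-fold in array signal. Whether that signal lay above background cannot be read, so the interval does not bound the RNA itself. Cyp24a1, which degrades calcitriol and is its most sensitive target gene, also did not pass. At 1418866_at the Hyp arrays read -0.01, -0.11, -0.13 and 0.22 and the WT arrays 0.01, 0.05, -0.10 and 0.34, with the highest array of each genotype being replicate 4. The difference was -0.08 ± 0.11 (95% interval -0.32 to 0.15, limma adjusted p = 0.694). At 1418867_at the Hyp arrays read -0.24, -0.02, 0.14 and 0.02 and the WT arrays -0.06, 0.06, -0.10 and 0.08, for a difference of -0.02 ± 0.09 (limma adjusted p = 0.923). On the gene mean the interval allows 0.86-fold to 1.09-fold in array signal, with the same limit.

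Cyp27b1 minus Cyp24a1 was taken on gene means in each array, as a contrast of centred array signals. It was -0.003 ± 0.18 (SD, n = 4) in Hyp and -0.04 ± 0.17 in WT, and the arrays overlapped. The difference of 0.03 was well within the spread (two-sided exact permutation p = 0.971, and 0.971 after adjustment over the 2 tests). Whether either signal lay above background cannot be read, so the balance of calcitriol formation and breakdown was not measured.

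The calcium transport genes were not called either. Trpv6, a calcium channel of the apical membrane in gut and other epithelia, read 0.26, -0.15, 0.18 and -0.24 in Hyp and -0.05, 0.33, -0.16 and 0.05 in WT. Its arrays scattered in both genotypes, with a within-group SD above that of 93.5% of probe sets, and the difference was -0.03 ± 0.13 (SE, 95% interval -0.32 to 0.27, limma adjusted p = 0.93). S100g, the cytosolic calcium-binding protein calbindin-D9k, read 0.09, -0.04, -0.11 and 0.33 in Hyp and -0.05, 0.04, -0.05 and 0.24 in WT. Replicate 4 was the highest array in each genotype, and the difference was 0.02 ± 0.10 (95% interval -0.21 to 0.25, limma adjusted p = 0.927). Of 9 measured markers of intestinal and renal epithelium, where both genes are best known, 0 passed in limma and 1 had an unadjusted p under 0.05, with a list median of 0.04.

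**Figure D3:**
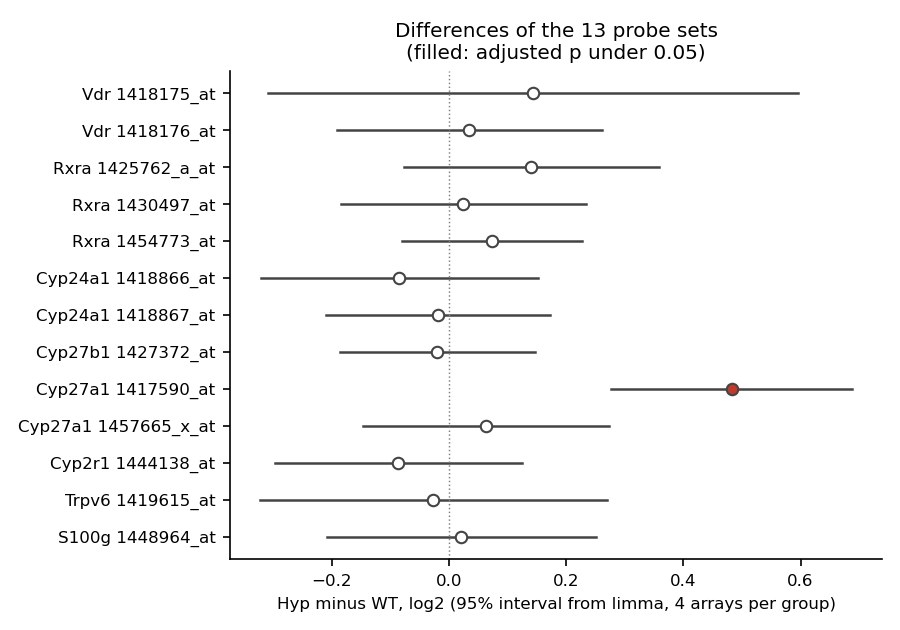
Difference of Hyp minus WT for the 13 probe sets (x axis, log2), with 95% intervals from limma over 4 arrays per group and a filled point where the adjusted p was under 0.05. Cyp27a1 1417590_at, at 0.48, is the filled point, and the widest interval belongs to Vdr 1418175_at, from -0.31 to 0.60.

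Beyond these 8 genes, 50 of 62 listed genes of the wider vitamin D pathway could be measured on gene means. Of these, 7 rose and 6 fell, beside 6.54% and 6.32% of all genes. The Vdr target genes of bone gave 5 of the rises and 4 of the falls. The lists were chosen with earlier results of these data known, so these counts are not independent of those results. Among 6 genes of vitamin D transport and precursor handling, 1 rose (list median 0.08). It was Dab2, an endocytic adaptor that works with the vitamin D carrier receptor megalin, which rose by 0.58 ± 0.06 (SE, limma adjusted p = 0.000179). The Hyp values ran from 0.17 to 0.28 and the WT values from -0.46 to -0.21, and 3 of its 4 probe sets passed. Megalin itself, Lrp2, lay at 0.03 ± 0.05 (limma adjusted p = 0.788) and is named after its values were seen. Of 4 electron donors and other hydroxylases 0 passed in limma, as was true at an unadjusted p under 0.05 (median 0.01). Those with the smallest p were Cyp3a11 at 0.09 ± 0.08 and Cyp3a13 at 0.03 ± 0.06 (limma adjusted p = 0.474 and 0.81). The other retinoid X receptors, Rxrg at 0.09 ± 0.06 and Rxrb at 0.06 ± 0.08, did not pass (limma adjusted p = 0.389 and 0.672).

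Of 9 measured coactivators and corepressors of Vdr 0 passed in limma, 2 had an unadjusted p under 0.05, and the median was -0.02. Hr (hairless), a corepressor that binds Vdr, lay at -0.20 ± 0.06 (SE, limma adjusted p = 0.0636). Its Hyp arrays, between -0.16 and -0.03, did not overlap its WT arrays, between -0.03 and 0.19, though the nearest values round alike. Baz1b, a chromatin remodelling subunit, lay at 0.14 ± 0.06 (limma adjusted p = 0.149).

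Target genes of Vdr in bone went both ways. Of 14 measured, 5 rose and 4 fell, with a median of 0.19 beside 0.02 for all genes, where 6.54% rose and 6.32% fell. The list held 20 genes, of which Spp1, Bglap, Bglap2, Enpp1, Runx2 and Pthlh could not be measured on gene means. Fgf23, which calcitriol induces, rose by 5.61 ± 0.18 (SE), Mgp, an inhibitor of calcification, by 1.14 ± 0.08, Ank, a pyrophosphate transporter, by 0.77 ± 0.10 and Mmp13 (collagenase 3) by 0.52 ± 0.06. Klf4, a transcription factor, fell by 0.71 ± 0.07. Limma adjusted p for these 5 ran from 1.22e-07 to 0.000837. Several of these genes had stood out in earlier results of these data, so their count is not independent of them. The others that passed are named after their values were seen: Insig2, a sterol sensor protein, fell by 0.49 ± 0.07, Car2 (carbonic anhydrase 2) rose by 0.26 ± 0.05, Alpl (tissue-nonspecific alkaline phosphatase) fell by 0.21 ± 0.05 and Cdkn1a, a cell cycle inhibitor, fell by 0.35 ± 0.10 (limma adjusted p = 0.00089, 0.01, 0.0203 and 0.0425). Without Hyp replicate 1 or 4 or WT replicate 1 or 2, Alpl lay between -0.21 and -0.18 with adjusted p from 0.0514 to 0.0559. Cdkn1a kept its call without Hyp replicate 3 and lost it without each of the other 7 arrays, at -0.38 to -0.26 with adjusted p from 0.0542 to 0.122. Tnfsf11 (RANKL), the osteoclast-forming cytokine that calcitriol induces, lay at 0.22 ± 0.18 (limma adjusted p = 0.46), also named after its values were seen.

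Of 8 measured genes of calcium transport other than Trpv6 and S100g, 1 rose and 1 fell (median 0.04), where 12.9% of all genes were called. Atp2b1, a plasma membrane calcium pump that calcitriol can induce, fell by 0.49 ± 0.07 (SE, limma adjusted p = 0.00089), with 2 of its 3 probe sets past the threshold. The Hyp values ran from -0.34 to -0.15 and the WT values from 0.13 to 0.36. Atp2b4, another such pump, rose by 0.26 ± 0.07 (limma adjusted p = 0.0301), a call lost without Hyp replicate 1, 3 or 4 or WT replicate 1 or 4 (0.22 to 0.26, adjusted p from 0.0682 to 0.0931). Of 7 genes of parathyroid hormone, calcium and FGF23 signalling upstream of calcitriol formation, 1 fell and the rest did not pass (median -0.02), a share near those 12.9%. Pth1r, the parathyroid hormone receptor of osteoblasts, fell by 0.24 ± 0.07 (limma adjusted p = 0.0351), and the call was lost without any 1 of the 4 Hyp arrays or without WT replicate 1 (-0.26 to -0.23, adjusted p from 0.0578 to 0.0943). The single probe sets of Alpl, Atp2b4 and Pth1r, tested among all probe sets, had adjusted p of 0.0587, 0.0638 and 0.073, and the 2 probe sets of Cdkn1a had 0.0515 and 0.156.

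**Figure D4:**
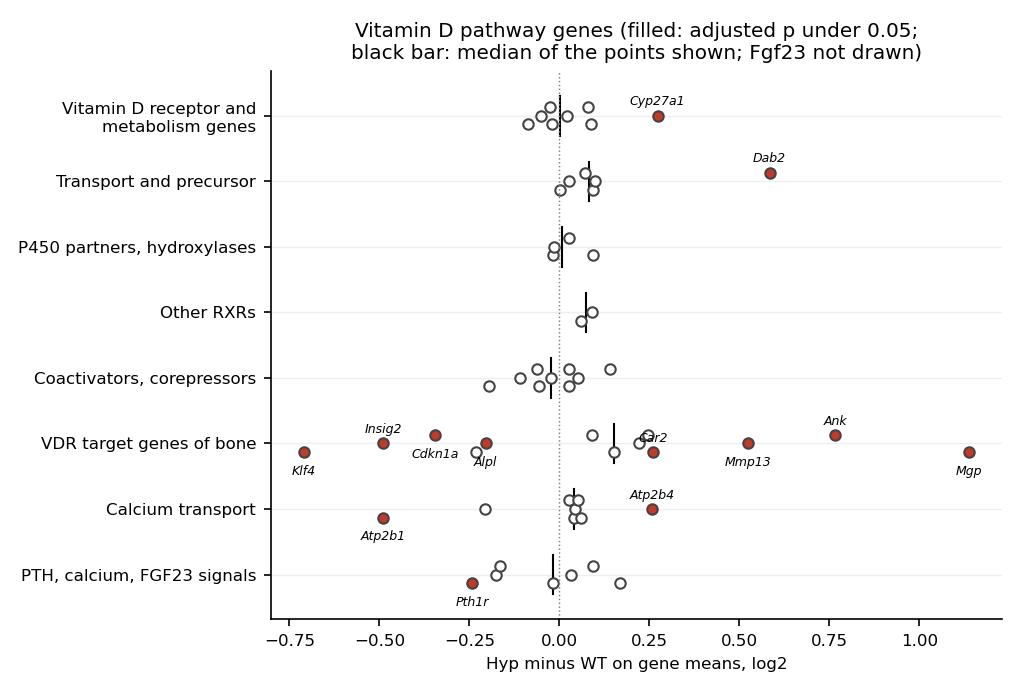
Difference of Hyp minus WT on gene means (x axis, log2) for the 8 genes and for 7 lists of other pathway genes, 1 point per gene, filled where the limma adjusted p was under 0.05, with a black bar at the median of the points drawn. Fgf23, at 5.61, is not drawn, and filled points are most frequent among the Vdr target genes of bone, on both sides of 0. The lists were chosen with earlier results of these data known.

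Markers of other cell types are given beside 6.54% of all genes called higher and 6.32% called lower. Of 11 osteoblast and osteocyte markers 6 fell and 2 rose (median -0.47), and of 9 chondrocyte markers 5 rose (median 0.57). The 6 that fell included Phex, the gene deleted in Hyp, whose fall was given by the genotype. Of 10 osteoclast markers 1 fell (median -0.08), near the share of all genes, and of 9 epithelial and keratinocyte markers 2 rose and 1 fell (median 0.08). Of 9 skeletal muscle markers 0 passed in limma or at an unadjusted p under 0.05, with a median of -0.71. The part of these cell types in the differences of the pathway genes was not tested.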

How the data were processed

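The authors deposited 1 value per probe set and array, made with RMA per the submitters' processing notes, on a log2 scale. The log base is not given in the sources used here and was taken as 2. Medians over the 8 arrays were 0 for each probe set (to within 5e-07), which shows a centring that no label records. Of 45101 probe sets 64 controls were left out. By the platform annotation 34945 had 1 gene symbol, 932 had several and 9160 had none here, and symbols were updated by gene identifier in a RefSeq table of GRCm38.p6. Hyp and WT were compared with lmFit and eBayes of limma 3.58.1, under R 4.3.3, over all 45037 probe sets, and over 18193 gene means (all probe sets of 1 symbol averaged per array), two-sided, with Benjamini-Hochberg adjustment and a threshold of 0.05. Intervals of 95% come from the same fit. Array number limits the precision. The genes, lists and naming rule were chosen with earlier results of these data known: every probe set of the 8 genes, up to 5 called genes per list, or the 2 with the smallest p where none was called. Genes of the marker lists are given as counts, apart from Phex and Col1a1. The fit was tested on simulated data with fewer changed probe sets than were called here, so the shares recovered do not carry over directly. It recovered 0 of 50 changes of 0.25, 29 of 50 of 0.5, 45 of 50 of 1 and 50 of 50 of 2 (log2).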

Additional observations from a re-analysis of the deposited data

Results flagged for a closer look

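A single array lay far from the other 3 of its genotype in 4 of 72 groups tested, where chance flags about 1 in 20. The gap to the nearest array was 0.878 of the group's range for Rxra at 1430497_at, where Hyp replicate 2 was the lowest, and 0.838 for Cyp2r1 at 1444138_at, where Hyp replicate 2 was the highest. It was 0.902 for the gene mean of Klf4, where Hyp replicate 3 was the highest, and 0.9 for that of Ank, where Hyp replicate 4 was the lowest.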

How the results depend on the processing

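At an adjusted p under 0.01, 0 of the 13 probe sets and 0 of the 8 genes were called (at an unadjusted p under 0.05, limma, 1 and 1), since Cyp27a1, at 0.48 at 1417590_at and 0.27 on the gene mean, had adjusted p of 0.0116 and 0.0264, and 8 of the other pathway genes were called in place of 13. On gene means the count was 0 to 1 with 1 array left out, Cyp27a1 lying between 0.24 and 0.33, and 0 with WT replicate 3 and Hyp replicate 2 both left out, an alternative chosen after seeing the data (Cyp27a1 0.25, adjusted p = 0.0884). The per-probe-set call of Cyp27a1 held under the other 17 alternatives run for it, at 0.41 to 0.52. Under the alternatives no other member passed, and small differences such as those of S100g (-0.07 to 0.09) and Trpv6 (-0.11 to 0.07) changed sign. The replicate number was also tried as a block. Same-numbered arrays correlated at 0.145, -0.044, 0.262 and 0.179, and 2 of the 4 Hyp arrays correlated best with their own number. These values do not settle whether the numbers pair the samples. With the block the 1 probe set and 1 gene were still called, and 12 other pathway genes in place of 13. Hr passed with array weights (-0.21, adjusted p = 0.0473) and without WT replicate 2 (-0.24, adjusted p = 0.0306). A filter on level needs levels, so only the filter on SD was run. Centring hides signal over background, so the differences of dim probe sets cannot be told from those of bright ones.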
